A study of Arabidopsis thaliana with 64 samples.

Results

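Arabidopsis lines named for 3 loci of the autonomous flowering pathway, FCA, FPA and FY, were compared between long days of 16 h light and short days of 8 h light. The lines were taken by the line name and hours in the array titles, which gave 12 of the 64 arrays of the series, 2 for each line and day length. FCAVRN1, FCAVRN2 and FVE were left out, because their day length labels conflict or their comparators differ. On each array total RNA of a line (FCA, FPA or FY, under 16 h or under 8 h) was set against total RNA of wild type under the same day length label. All plants were 12 days old. Of the 2 arrays of a group, 1 had the dyes swapped and 1 did not, and the labels give them different biological replicate numbers. The sources used here give no alleles, background accession, tissue or number of pooled plants, and do not say whether arrays shared wild type RNA. The value compared is the log2 ratio of line to wild type, averaged over the 2 arrays of a group, so that each line has 1 value under 16 h and 1 under 8 h, and the error is the spread between the 3 lines.

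The autonomous pathway promotes flowering in both day lengths by lowering the level of FLC, a MADS box protein that represses flowering. FCA and FPA encode RNA-binding proteins, and FY encodes a component of the machinery that forms the 3′ ends of transcripts. Mutants of this pathway flower late under long and short days and still respond to day length, in contrast to mutants of the photoperiod pathway, which read day length itself.

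The labels leave the direction of the deposited ratios unsettled. Positive values are read here as more RNA in the line than in wild type, the likely direction, since the descriptions name the line first and unswapped arrays carry it in channel 1. With the sign turned, every lower value below is a higher one. Each array gave 13818 to 13824 ratios, of which 10.3% to 11.4% were exactly 1. The SD of the log2 ratios of an array lay between 0.186 and 0.285 on 11 arrays and was 0.386 on FPA_8h replicate 1. The 2 arrays of a group correlated over probes with r between -0.0475 and 0.347, and between 0.0088 and 0.427 once the mean dye effect was removed. Among these 12 arrays no pair of the same orientation correlated below -0.3 (lowest -0.0601), whereas 7 of 992 such pairs did in the whole series (lowest -0.461). The array titles carry running numbers, and all 6 of the 8 h arrays have lower numbers than all of the 16 h arrays. Whether those numbers mark batches is not given. If they do, batch and day length cannot be told apart in these lines.

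The first question was which transcripts, relative to wild type, differed between long and short days in the autonomous lines as a class. With lines as replicates no probe passed an adjusted p of 0.05 by limma, 0 of 13824 or 0%, and 618 probes (4.47%) had an unadjusted p under 0.05, 325 of them lower under 16 h (2.35%) and 293 higher (2.12%). Only 3 genes had probes whose mean difference exceeded 2-fold: AT2G43590 on 3 of its 4 probes, the plant defensin PDF1.2 (AT5G44420) on both probes, and the plant defensin PDF1.3 (AT2G26010) on its single probe. Those 6 probes, 0.0434% of those tested, were lower under 16 h by 2.00-fold to 2.86-fold, and no probe was higher by as much. With arrays in place of lines as units, 5 probes were called by limma (0.0362%), all lower under 16 h. These were the same 3 probes of AT2G43590, the PDF1.2 probe SP0000127959 and the unnamed probe SP0000127521. With arrays as units the error comes from the arrays and leaves out the spread between lines. In RNA of mixed cells a change in the number of cells of a type and a change in RNA per cell cannot be told apart. In the plot of all probes these genes stand at the lower end of the differences.

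**Figure D1:**
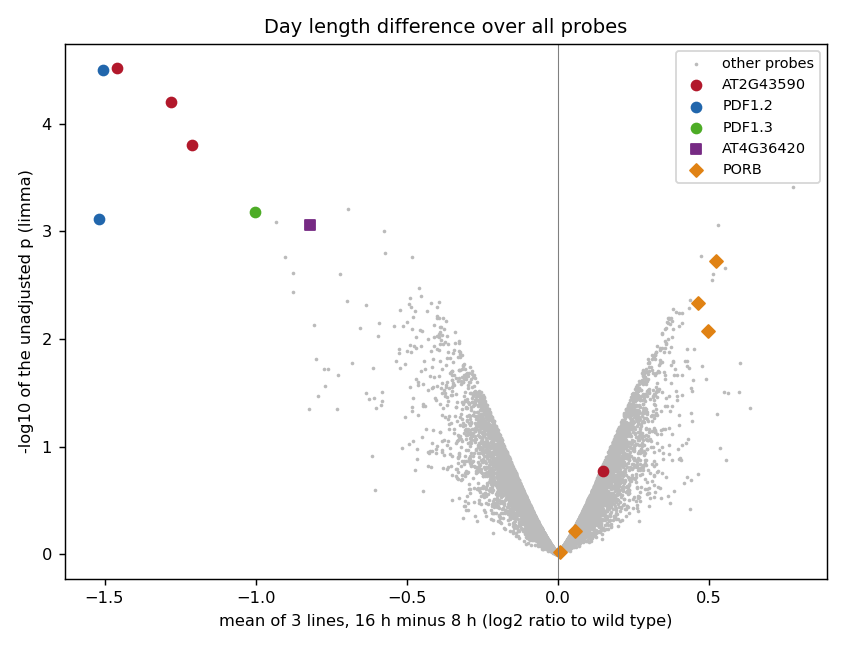
Mean difference between 16 h and 8 h over FCA, FPA and FY (log2 ratio to wild type, x axis) against -log10 of the unadjusted limma p (y axis), 1 point a probe. The 6 coloured probes beyond -1 on the x axis belong to PDF1.2, AT2G43590 and PDF1.3, and the fourth AT2G43590 probe lies at 0.15.

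AT2G43590, for which the tables used here give a locus and no product, had its clearest values on probe SP0000123630. In FCA the log2 ratios were -1.38 and -1.34 under 16 h, against -0.29 and -0.27 under 8 h. In FPA they were -0.12 and -0.52 under 16 h, against 1.72 and 1.07 under 8 h. In FY they were -0.92 and -0.01 under 16 h, against 1.00 and 1.25 under 8 h. Both 16 h arrays thus lay below both 8 h arrays within each line, although the ranges of all 16 h and all 8 h arrays overlap through the low level of FCA. The mean difference was -1.46 ± 0.34 (SD between lines, n = 3), with -1.08 in FCA, -1.71 in FPA and -1.59 in FY. By limma its moderated SE was 0.14 and its adjusted p 0.22 with lines as units, and 0.0015 with arrays as units. This probe was also called without FY (adjusted p = 0.0204) and not without FCA or without FPA.

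On the other probes of the gene, SP0000123639 differed by -1.28 ± 0.33 and SP0000115879 by -1.21 ± 0.39 (SD between lines, n = 3 each), and both lay lower on both 16 h arrays of each line. Their adjusted limma p was 0.287 and 0.542 with lines as units, and 0.0068 and 0.0172 with arrays as units. Without FY the first of them was called (adjusted p = 0.0355 by limma). The probe SP0000128318 went against them, with a mean log2 ratio of 0.12 under 16 h against -0.04 under 8 h. Averaging all 4 probes gave a difference of -0.95.

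**Figure D2:**
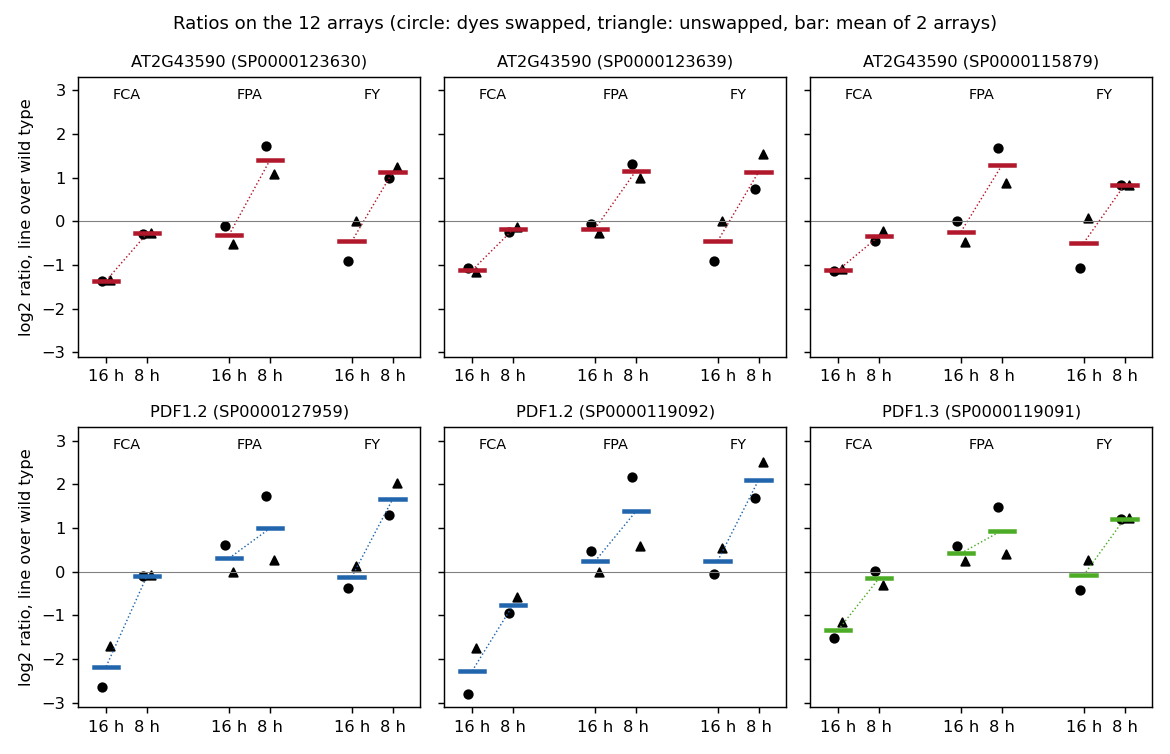
Log2 ratio of line to wild type (y axis) on each of the 12 arrays for the 6 probes beyond 2-fold, with 16 h left of 8 h within FCA, FPA and FY. Circles are arrays with swapped dyes, triangles unswapped arrays and bars the mean of 2 arrays. Each bar for 16 h lies below the bar for 8 h of its line, and FCA lies lowest of the 3 lines under each day length in every panel.

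PDF1.2 encodes a plant defensin, a small antifungal protein whose transcript is a standard marker of jasmonate and ethylene signalling. On probe SP0000119092 the FCA ratios were -2.80 and -1.75 under 16 h, against -0.95 and -0.58 under 8 h. The FPA ratios were 0.47 and 0 under 16 h, against 2.16 and 0.59 under 8 h. The FY ratios were -0.06 and 0.54 under 16 h, against 1.69 and 2.51 under 8 h. Each line again kept both 16 h arrays below both 8 h arrays, while the lines themselves stood far apart in level. The difference was -1.505 ± 0.36 (SD between lines, n = 3), with an adjusted limma p of 0.22 with lines as units, 0.0197 without FY and 0.0934 with arrays as units.

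The second PDF1.2 probe, SP0000127959, differed by -2.08 in FCA, -0.68 in FPA and -1.78 in FY. Its mean of -1.52 ± 0.74 (SD between lines, n = 3) was the largest of any probe, and FPA set its spread. In FPA this probe read 0.61 and 0 under 16 h, against 1.72 and 0.26 under 8 h, so that the arrays overlapped. The adjusted limma p was 0.971 over the 3 lines, 0.0346 without FPA, where the difference was -1.93, and 0.046 with arrays as units. Leaving out FPA removes the line that set the spread, and arrays as units leave the spread between lines out of the error. Neither of those values therefore tests a difference shared by the 3 lines.

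PDF1.3, a second defensin of the same family, had FCA ratios of -1.53 and -1.15 under 16 h, against 0.02 and -0.32 under 8 h. Its FY ratios were -0.43 and 0.26 under 16 h, against 1.21 and 1.22 under 8 h, and in FPA, where arrays overlapped, they were 0.59 and 0.25 under 16 h, against 1.47 and 0.41 under 8 h. The mean difference was -1.002 ± 0.42 (SD between lines, n = 3), with an adjusted limma p of 0.971 with lines as units and 0.323 with arrays as units. The PDF1 defensins have near-identical coding sequences, so signals on the probes of PDF1.2 and PDF1.3 are uncertain as to the copy they come from, and the 3 probes may not be independent.

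The levels behind these differences lay on different sides of wild type in the lines. FCA was below wild type under 16 h on all 6 probes (group means between -2.28 and -1.12) and closer to it under 8 h (-0.76 to -0.09). FPA and FY had group means between -0.50 and 0.42 under 16 h and above wild type under 8 h (0.83 to 2.101). In FY the 2 arrays under 16 h disagreed on AT2G43590. The swapped array read -0.92, -0.91 and -1.08 on SP0000123630, SP0000123639 and SP0000115879, and the unswapped array -0.01, 0 and 0.08. Tested against 0, the pooled ratio under 16 h was called on 0 probes (0%; 1488 or 10.8% at an unadjusted p under 0.05), as was the pooled ratio under 8 h (0%; 799 or 5.78% at an unadjusted p under 0.05), both by limma with lines as units. With arrays as units the counts were 64 under 16 h (0.463%; 38 or 0.275% lower, 26 or 0.188% higher) and 36 under 8 h (0.26%; 11 or 0.0796% lower, 25 or 0.181% higher). A ratio to wild type does not tell whether the line or the wild type moved with day length.

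The next question was whether these differences were larger in autonomous lines than in lines of the photoperiod pathway. The 7 photoperiod lines, GI, FWA, FT, FHA, FE, FD and CO, on 28 arrays, were also set against wild type under both day lengths. Over all probes 0 were called by limma in the difference of the differences with lines as units (0%; 394 or 2.85% at an unadjusted p under 0.05, 233 or 1.69% lower and 161 or 1.16% higher in the autonomous lines) and 0 with arrays as units. For the 6 probes the autonomous lines differed from the photoperiod lines by -0.17 to -0.51, and the adjusted p was 1.00 for each by limma. On SP0000123630 of AT2G43590 the difference of -1.46 in autonomous lines stood against a mean of -0.95 in photoperiod lines, which is -0.51 ± 0.33 (SE). PDF1.2 on SP0000119092 had -1.505 in autonomous lines, against -1.34 in photoperiod lines, which is -0.17 ± 0.57 (SE).

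The photoperiod lines were not alike in these genes. CO, FD, FE and FHA had values between -2.38 and -0.97 over the 6 probes, FWA between -1.35 and -0.24, FT between -0.56 and -0.11, and GI between -0.29 and 0.87. CO, FD and FE stood below wild type under 16 h (-1.61 to -1.01) and between -0.21 and 0.89 under 8 h, the side on which FCA also lay under 16 h. FHA was between -0.43 and -0.22 under 16 h and between 0.60 and 1.504 under 8 h, which overlaps the levels of FPA and FY. In the titles both 8 h arrays of GI have higher numbers than both of its 16 h arrays, while in each of the other 9 lines both 8 h arrays have lower ones. Whether this bears on the values of GI was not tested. On SP0000123630 FPA, at -1.71, lay below the lowest photoperiod line at -1.60, and the other 17 of the 18 autonomous values lay between the lowest and the highest photoperiod line on their probe. FVE, which was left out of the main comparison, differed by its titles by -0.15, -0.53 and -0.62 on SP0000123630, SP0000123639 and SP0000115879 of AT2G43590. On PDF1.2 FVE differed by -0.13 (SP0000119092) and -0.54 (SP0000127959), and on PDF1.3 by -0.15. These values are smaller than those of the pooled lines.

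**Figure D3:**
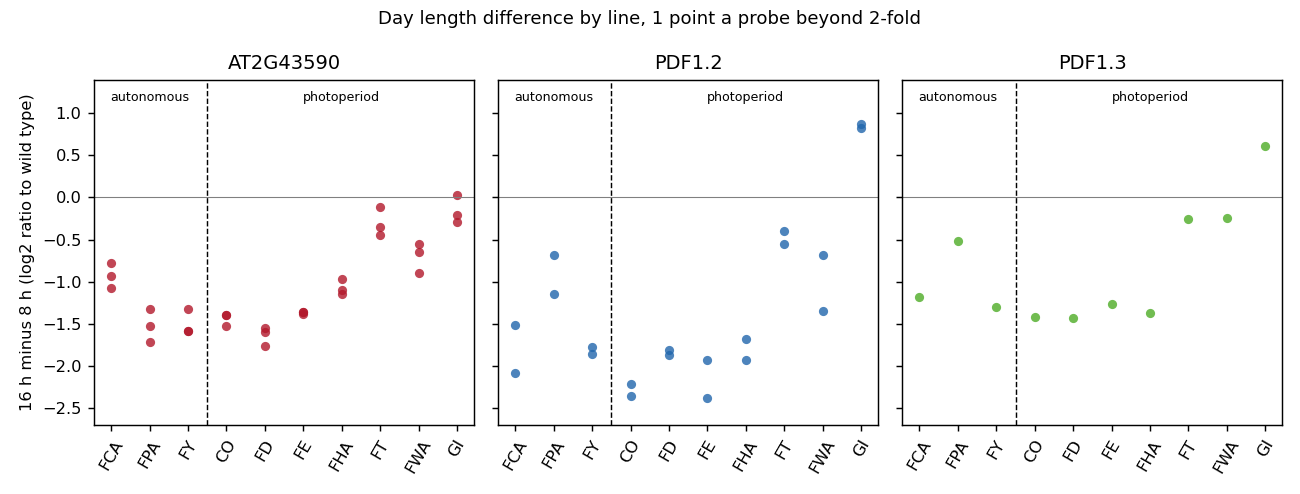
Difference between 16 h and 8 h (log2 ratio to wild type, y axis) in each of the 3 autonomous and 7 photoperiod lines, 1 point a probe beyond 2-fold. The autonomous lines lie between -2.08 and -0.52 and the photoperiod lines between -2.38 and 0.87, with GI between -0.29 and 0.87.

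Among the other genes lower under 16 h, the evidence of single arrays differed. Their adjusted limma p was 0.971 each, so they are given as values. AT1G50290 lay lower on both 16 h arrays of every line on both of its probes, with group means of -0.17 under 16 h against 0.41 under 8 h on SP0000128754 (difference -0.58 ± 0.14, SD between lines, n = 3) and a difference of -0.47 on the other. AT1G12850 and AT5G21020 showed the same order on 1 probe each, with differences of -0.54 and -0.53. On this AT1G12850 probe the swapped 8 h arrays read 1.28 in FCA, 0.37 in FPA and 0.41 in FY. The unswapped 8 h arrays read 0.05, 0.02 and 0.06. A second AT1G12850 probe differed by 0.08.

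AT4G36420 differed by -0.82 ± 0.33 (SD between lines, n = 3), and its low 16 h values came from the unswapped arrays. Those read -0.77 in FCA, -1.29 in FPA and -1.43 in FY, while the swapped 16 h arrays read 0, 0.33 and 0. AT5G56070 differed by -0.72 but was dominated by dye orientation. Its swapped arrays read between 1.27 and 1.99 and its unswapped arrays between -3.16 and -0.96, over both day lengths. AT3G17770 (-0.81) had its highest values on the swapped 8 h arrays, at 2.74 in FCA and 1.24 in FPA, and its second probe differed by 0.04. Group means under 16 h and 8 h were 0.02 and 1.36 in FCA, -0.14 and 0.75 in FPA, and -0.04 and 0.15 in FY. AT3G17770 was called without FY (-1.12; adjusted p = 0.0382 by limma), and its difference was -0.45 without FCA_8h replicate 1. Leaving out FY removes the line that differed least, so that call does not test a difference shared by the 3 lines. AT1G28135 (-0.59) had 1 array of FCA at -1.64, without which the difference was -0.28, and its second probe differed by -0.11.

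Differences in the other direction were smaller, up to 0.55 among the genes named here. PORB, a light-dependent protochlorophyllide oxidoreductase of chlorophyll synthesis, differed on 3 of its 5 probes. Its probe SP0000123142 averaged -0.16 under 16 h against -0.68 under 8 h, a difference of 0.53 ± 0.15 (SD between lines, n = 3; adjusted p = 0.971 by limma). In FCA this probe read 0.27 and 0.21 under 16 h, against 0.03 and -0.33 under 8 h. FPA read -0.53 and -0.58 under 16 h, against -1.65 and -0.45 under 8 h, and FY read -0.25 and -0.07 under 16 h, against -0.11 and -1.60 under 8 h. In FPA and FY a single 8 h array, of opposite dye orientation in the 2 lines, thus held the low values. The PORB probes SP0000127401 and SP0000128403 differed by 0.50 and 0.46, and the remaining pair by 0.06 and 0.01. In photoperiod lines the PORB probe SP0000123142 averaged 0.01, within a range from -0.69 in FWA to 0.45 in FD. The autonomous lines exceeded that average by 0.51 ± 0.19 (SE; adjusted p = 1.00 by limma). FVE, which was left out of the main comparison, differed by -0.37 on this probe by its titles.

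AT2G18193 had the largest difference of these genes, 0.55 ± 0.56 (SD between lines, n = 3), made up of 0.06 in FCA, 0.43 in FPA and 1.16 in FY. The photoperiod lines averaged 0.55 on the same probe, with all 7 positive. AMY1, an alpha-amylase that degrades starch, differed by 0.44 ± 0.49, of which FY held 1.00, and by 0.12 on its other probe. APS4, an ATP sulfurylase of sulfate assimilation, lay higher on both 16 h arrays of each line on 1 probe (0.26 in FCA, 0.37 in FPA, 0.58 in FY), with 0.25 and 0.03 on the other probes. AT5G53730, listed as NHL26, differed by 0.40 ± 0.12 and AT5G16880 by 0.41 ± 0.17, with 0.16 on the other AT5G16880 probe. In both genes the 16 h values depended on dye orientation. On the swapped 16 h arrays AT5G53730 read 0.57 in FCA, 0.95 in FPA and 0.94 in FY. The unswapped ones read 0, 0 and 0.37. AT5G16880 on SP0000118915 read -0.05, -0.01 and -0.13 on the swapped 16 h arrays, against 0.78, 0.29 and 0.74 on the unswapped ones. SECE1, a subunit of the thylakoid protein translocase, differed by 0.39 ± 0.34, and by 0.06 on its other probe. ECS1 (0.43), AT5G22620 (0.42) and AT5G35735 (0.38) complete the 10 genes with the largest differences that had an unadjusted p under 0.05 and the same sign in the 3 lines. Their other probes gave smaller values, -0.20, -0.07 and 0.01 for ECS1, 0.08 and 0.10 for AT5G22620 and 0.04 for AT5G35735. ECS1 on SP0000128091 read 0.36 in FCA, 0.35 in FPA and 0.99 in FY on the unswapped 16 h arrays. The swapped 16 h arrays read -0.26, -0.0018 and 0.0022.

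Probes without a gene name gave differences of similar size. SP0000127615 had the most even one over the lines, with 0.53 in FCA, 0.54 in FPA and 0.52 in FY, and all of its 16 h arrays lay above both 8 h arrays of the same line. Its high 16 h values came from the swapped arrays, at 0.26 in FCA, 0.86 in FPA and 0.62 in FY. The unswapped 16 h arrays read 0.05, 0.03 and 0.03. Set against the photoperiod lines this probe was higher by 0.43 ± 0.12 (SE; adjusted p = 1.00 by limma). SP0000127633 differed by 0.78 ± 0.22, SP0000120482 by -0.69 ± 0.20 and SP0000115992 by -0.93 ± 0.40 (SD between lines, n = 3 each).

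In all, 174 probes (1.26%) had both 16 h arrays beyond both 8 h arrays in each line, 78 lower (0.564%) and 96 higher (0.694%). Of these, 41 lower and 35 higher probes had a gene name, and 4 of the 6 probes beyond 2-fold were among them. PSBW, a small subunit of photosystem II, was lower in this way on SP0000127500, by 0.32 in FCA, 0.29 in FPA and 0.97 in FY. Its other probe, SP0000120609, differed by -0.01 in FCA, -0.15 in FPA and -0.54 in FY and did not show this order in each line. The same sign in the 3 lines was seen for 3531 probes (25.5%). Random signs agree in 3 lines with a probability of 0.25, so this share is near that of chance. For the order of arrays no chance share was computed, so the 174 probes are a count and not evidence of a shared difference.

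Gene groups related to day length were sparsely covered. No member of the lists for the circadian clock, nitrate assimilation, antioxidant enzymes, floral organ identity, root markers or seed storage had a named probe. Of the mutated loci only FPA had one, and its log2 ratio was -0.02 under 16 h and 0.02 under 8 h over the 3 lines, with 0.15 as the difference within the FPA line. LD, another autonomous pathway gene, differed by -0.05, and SNZ, an AP2-like repressor of flowering, by -0.14. In no list was a member called with lines as units (0% of all probes), and over all 5164 named genes the median difference was 0.0018, with 2548 negative (49.3%) and 2616 positive (50.7%).

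Of 9 measured genes of light harvesting and the photosystems 8 had negative mean differences (median -0.09). The line medians of that list were 0.07 in FCA, -0.21 in FPA and 0.02 in FY, and the PSBW probe SP0000127500 had the largest single value, -0.53 (adjusted p = 0.971 by limma). All 5 measured genes of the Calvin cycle and photorespiration had negative mean differences (median -0.14), and the lines stood apart. The median of this second list was -0.19 in FCA, -0.44 in FPA and 0.15 in FY. PRK, the phosphoribulokinase that regenerates the acceptor of carbon dioxide, differed in FPA by -1.16, -1.05 and -1.04 on its probes, against -0.16 to 0.10 in FCA and 0.07 to 0.22 in FY. RCA, the activase of Rubisco, differed on its probe SP0000118732 by -0.21 in FCA, -0.87 in FPA and 0.49 in FY.

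In FPA the PRK probe SP0000115782 read -0.61 and -0.52 under 16 h, against 1.24 on the swapped and -0.05 on the unswapped 8 h array. The swapped one is FPA_8h replicate 1, the array with the widest ratios. On the other PRK probes this array read 0.51 and 0.86, against -0.18 and -0.04 on the unswapped one. Without it the mean difference of the 3 lines on SP0000115804 was -0.21, against -0.33 with it. In FY the probe SP0000115782 was below wild type throughout, at -0.80 and -0.19 under 16 h, against -0.90 and -0.41 under 8 h.

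**Figure D4:**
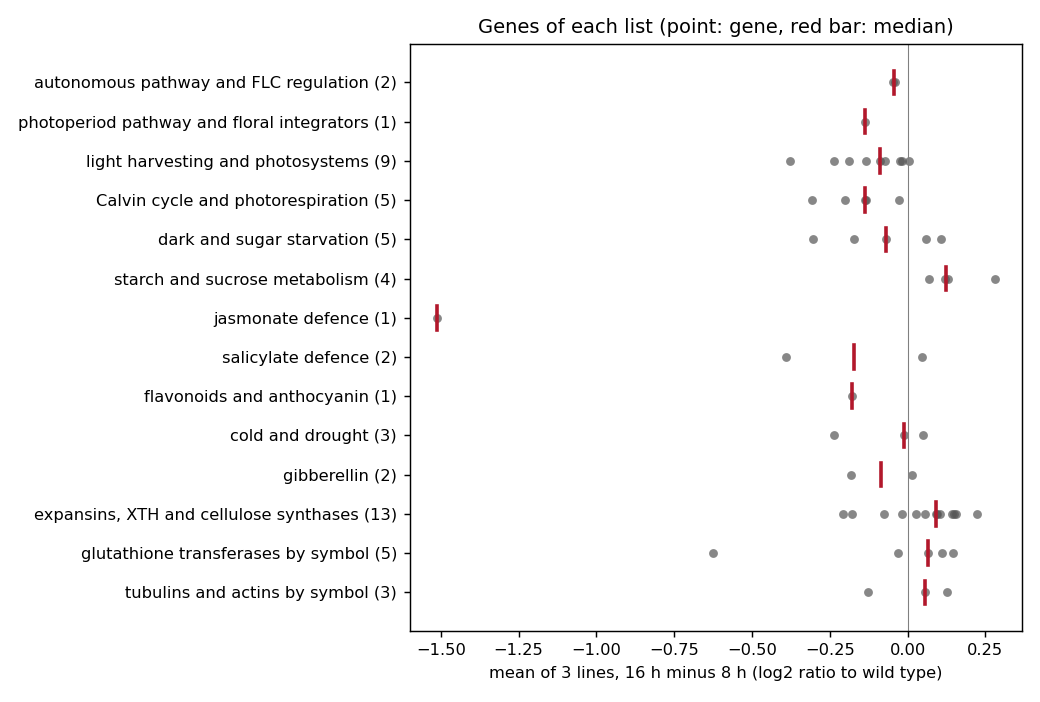
Mean difference between 16 h and 8 h over the 3 lines (log2 ratio to wild type, x axis) for the measured genes of each list, with the number of measured genes in brackets and the median as a red bar. PDF1.2 stands alone at -1.51, the mean of both probes, and the medians of the other lists lie between -0.18 and 0.12.

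Starch and sucrose genes had positive mean differences in 4 of 4 measured cases (median 0.12), namely AMY1, SWEET10, a sugar transporter, SBE2.2, a starch branching enzyme, and PWD, a kinase that prepares starch for breakdown. The line medians of these 4 genes were 0.14 in FCA, 0.0044 in FPA and 0.27 in FY. Expansins, XTH and cellulose synthase-like genes of cell wall growth were positive in 9 of 13 (median 0.09), with line medians of 0.10 in FCA, -0.01 in FPA and 0.09 in FY. Among 5 glutathione transferases GSTF3 had a difference of -0.63 ± 0.68 (SD between lines, n = 3; adjusted p = 0.971 by limma), with 0.09 in FCA, -1.26 in FPA and -0.71 in FY. Of 5 genes marking dark and sugar starvation 3 were negative and 2 positive (median -0.07), with ATG8E, an autophagy protein, at -0.30.

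Stress and hormone lists held few genes. Jasmonate defence was represented by PDF1.2 alone among 21 listed genes, so its median of -1.51 is that gene. In salicylate defence SAG101, a signalling protein of immunity, differed by -0.39, of which FCA held -0.95, and WRKY53 by 0.05. SAG101 read 2.01 on FCA_8h replicate 1, against 0.08 on replicate 2, and without the first of these arrays its mean difference was -0.14. In FPA and FY the swapped 8 h arrays were also the higher ones, at 0.76 and 0.69, against -0.06 and 0.07 on the unswapped ones. The flavonoid gene DFR differed by -0.18, the cold-induced KIN2 by -0.24 (FY -0.90) and the gibberellin-related XERICO by -0.18.

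The last question was how far the 3 lines shared their day length differences. Over 13824 probes these differences correlated with r = 0.314 between FCA and FY, -0.0354 between FCA and FPA and -0.243 between FPA and FY. The probes share arrays, and whether the lines share wild type RNA is not given, so these are descriptions. Differences beyond 2-fold numbered 26 in FCA, 49 in FPA and 100 in FY, and the SD over probes was 0.195 in FCA, 0.258 in FPA and 0.288 in FY.

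**Figure D5:**
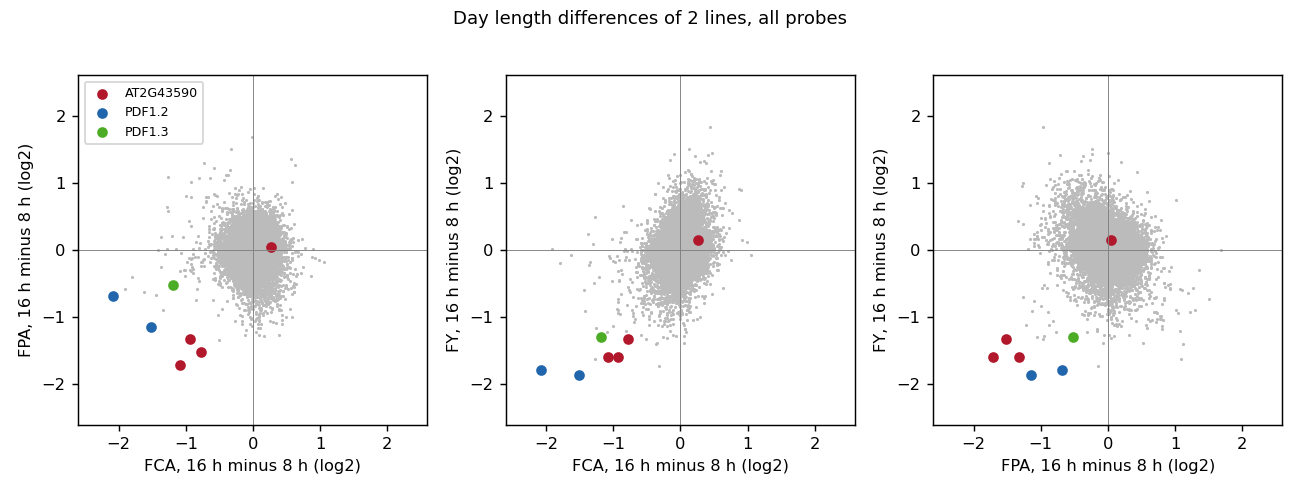
Difference between 16 h and 8 h (log2 ratio to wild type) of one line against that of another, 1 point a probe, over 13824 probes. The cloud of all probes tilts up between FCA and FY (r = 0.314) and down between FPA and FY (-0.243), while 6 of the 7 coloured probes lie at the lower left in each panel.

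Within single lines the fit to all arrays called 0 probes by limma in FCA (0%; 506 or 3.66% at an unadjusted p under 0.05), 0 in FPA (0%; 1113 or 8.05%) and 0 in FY (0%; 1630 or 11.8%). The test of whether the difference varies between the lines also called 0 probes (0%; 1171 or 8.47% at an unadjusted p under 0.05). AT3G17800 came nearest in that test, with -0.02 in FCA, -0.54 in FPA and 0.89 in FY on SP0000126180 (adjusted p = 0.196 by limma). Its probe SP0000126926 differed by 0.91 in FY but did not fall in FPA, where it averaged -0.02 under 16 h against -0.08 under 8 h. The remaining probe, SP0000126179, averaged 0 under 16 h against 0.28 under 8 h in FPA. In FY it averaged 0.23 under 16 h against -0.45 under 8 h. For the AT2G43590 probe SP0000123630 the adjusted p of variation between lines was 0.896, and for PDF1.2 it was 0.729 on SP0000127959.

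Leaving out single arrays changed how many probes were called within a line. In FPA the count was 217 without FPA_8h replicate 2, which leaves FPA_8h replicate 1 to stand for short days, and 4 without replicate 1. In FCA it was 50 without FCA_8h replicate 2, and in FY 38 without FY_8h replicate 2 and 26 without FY_16h replicate 2. Leaving out each of the other arrays of the same line gave 0 to 9 in FCA, 0 to 1 in FPA and 2 to 4 in FY. A lone array left in a group was assumed to vary like the other groups.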

How the data were processed

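Two-colour arrays measured total RNA of each line against wild type. Per the labels' descriptions, the authors normalized the arrays spatially by a published method of Wilson and others. The deposited values are linear ratios with a median of 1 on each array. Background correction, spot filters and ratio direction were not found in the labels or file headers. Of 884736 ratios 146 were missing. Signal over background is unknown, and the number of arrays limits precision.

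Log2 was taken of the deposited ratios, which were otherwise kept, on swapped and unswapped arrays alike. The reason was that the 2 arrays of a group correlated positively once the dye mean was removed (6 of 6 groups). In FPA_8h that r was 0.0088, which is too low to bear on this choice. The annotation gave 1 gene name to 6341 of 13824 probes and left 7483 unnamed. The TAIR10.1 gene table updated the names (6322 matched, 19 not). Its coordinates were not used.

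The main test was limma 3.58.1 in R 4.3.3 on 6 values, with line as a block (2 residual and 4.43 prior degrees of freedom). The 16 h and 8 h ratios were tested against 0, and 3 autonomous against 7 photoperiod lines, by limma with lines as units. Contrasts within a line, and arrays as units, came from a limma fit to 64 arrays with group means and a dye term (30 residual and 5.17 prior degrees of freedom). In that fit the GI_16h arrays, which carry a single replicate number, were averaged. P-values are two-sided and adjusted by Benjamini-Hochberg over all probes. Called means an adjusted p under 0.05. Standard errors were moderated by limma. They draw on all probes and can be smaller than the SD between lines implies. An exact sign test of 3 lines cannot go below 0.25. No label says whether replicates came from separate plants or cultures, so p-values within a line may reflect technical spread. The fit was tested on simulated data.

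Genes were named by rule: called genes of one sign in 3 lines, filled to 10 in each direction by the largest difference among probes with an unadjusted p under 0.05, then 3 in each direction for autonomous against photoperiod lines, up to 4 of each list, and 2 unnamed probes in each direction. The lines, lists and tests were chosen with earlier results of these data known. Alternatives were units, scaling, ratios of exactly 1, averaging of probes, moderation, lines and arrays left out, FVE added and replicate blocks.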

Additional observations from a re-analysis of the deposited data

Results flagged for a closer look

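In 64 sets of 6 arrays 6 held 1 array far from the other 5, by a 95% critical value, at which chance gives about 1 in 20. The sets were 31 probes, with or without a gene name, and the SD of log2 ratios, each under 16 h and 8 h. AT1G28135 read -1.64 on FCA_16h replicate 1, against -0.38 to 0.05 on the other 16 h arrays. AT1G12850 read 1.28 on FCA_8h replicate 1, against 0.02 to 0.41 on the other 8 h arrays. ECS1 on SP0000128091 read -0.56 on FPA_8h replicate 1, against -0.19 to -0.01. The unnamed SP0000127633 read -1.36 on the same array, against -0.36 to -0.11. AT5G22620 read 0.59 on FY_8h replicate 1, against -0.31 to -0.08, and lowered the difference of FY. The FPA probe read 0.39 on FCA_8h replicate 1, against -0.12 to 0.03. All 6 lie on swapped arrays, which are replicate 1 throughout.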

How the results depend on the processing

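Each comparison called 0 probes, and the counts under alternatives were as follows. With arrays as units the pooled difference had 5, the 16 h ratio 64 and the 8 h ratio 36. Scaling arrays to one median absolute deviation gave 1 for the pooled difference (AT2G43590 on SP0000123630, adjusted p = 0.041), and quantile normalization 1 in FY. With ratios of exactly 1 set to missing there were 2 in FPA, 4 in FY and 2 for variation between lines, and with probes averaged per gene 3 in FY. The fit to these 12 arrays alone gave 20 in FY, and adding FVE by its titles gave 2 for the 16 h ratio. Leaving out lines gave 0 to 4 for the pooled difference (1 without FPA, 4 without FY). Leaving out single arrays gave 0 to 50 in FCA, 0 to 217 in FPA, 0 to 38 in FY and 0 to 52 for variation between lines, highest without FPA_8h replicate 2, and 0 throughout for the pooled difference, both ratios and the class comparison. The cause was not tested.

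Replicate numbers coincide with dye orientation. The deviations of same-numbered arrays correlated with r of 0.2, 0.155 and 0.0656 in FCA, FPA and FY, and of -0.171, 0.0279 and -0.194 after dye removal. Whether same-numbered arrays share more than a number is not given, and these values cannot settle it. The replicate block gave 3 for the pooled difference (AT2G43590 on SP0000123630 and SP0000123639, adjusted p = 0.0051 each, and PDF1.2 on SP0000119092, 0.0261, by limma), 14 in FCA and 0 in FPA and FY.

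The 6 probes beyond 2-fold stayed negative in all 23 alternatives run, from -1.93 to -0.79. Of 1606 values that the 70 results on named probes took under alternatives, 34 had the opposite sign, in 15 of those results, none of which was called.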
